A study of Mus musculus with 12 samples.

Results

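The 5 enzyme complexes of oxidative phosphorylation sit in the inner membrane of mitochondria, and most of their subunits are encoded in the nucleus. Complexes I (NADH dehydrogenase) and II (succinate dehydrogenase) feed electrons to ubiquinone, complex III passes them to cytochrome c and complex IV (cytochrome c oxidase) passes them to oxygen. The proton gradient that complexes I, III and IV build drives complex V, the ATP synthase, which supplies much of the ATP that neurons spend on ion pumping and synaptic transmission. The genes described here are the nuclear-encoded subunits of these complexes, taken by the start of their symbol from the table of estimated counts: Ndufa, Ndufb, Ndufc, Ndufs and Ndufv for complex I, Sdh for complex II, Uqcr for complex III, Cox4 to Cox8 for complex IV and Atp5 for complex V, leaving out the assembly factors named Ndufaf and Sdhaf. They are 85 of the 24411 symbols in the table, 38 in complex I, 4 in complex II, 8 in complex III, 18 in complex IV and 17 in complex V.

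The symbols are a rule of naming and a few of them hold other proteins. Ndufa4 was first counted as a complex I protein and is now known as a subunit of cytochrome c oxidase, and Ndufa4l2 is its paralog. Cox7a2l is known for a role in joining complexes III and IV into supercomplexes, which was not measured in these mice. Atp5s and Atp5sl, which RefSeq now lists as Dmac2l and Dmac2, are not structural subunits of the ATP synthase. Of the 85 genes, 82 passed the filter on low counts and were tested. The 3 that did not pass were complex IV isoforms known from other tissues: Cox7b2 had 0 to 11 reads per library, Cox8b had 0 to 3, and Cox8c, a testis isoform, had 0 in every library.

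The mice were females of 8 to 12 weeks, and RNA of their medial prefrontal cortex gave 4 groups of 3 libraries. The groups were wild-type C57BL/6J mice (WT) and Cav3.1 knockout mice on the C57BL/6J background (KO), each with no treatment or after chronic stress. Values given as before and after stress, or as rising and falling, compare the unstressed with the stressed group, not the same mice over time. Cav3.1 is a T-type calcium channel encoded by Cacna1g, and chronic stress was a forced swim or a tail suspension test, 1 test a day for 5 days. A bioresource centre provided the KO line while the WT mice were bought, so a difference of genotype and one of colony cannot be told apart. The labels do not say that the 3 libraries of a group are separate animals, so the tests measure the spread between libraries.

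The libraries held between 15469590 and 31082240 estimated counts, and the subunit genes took 0.876% to 1.26% of them. Levels are given as CPM, counts scaled to a common library size. Cacna1g was at 133, 144 and 135 CPM in the WT libraries without stress and 128, 109.8 and 109 in those with it, against 65.1, 54.6 and 61.7 and 58.5, 66.0 and 57.6 in the corresponding KO libraries, so the KO libraries were all below the WT libraries and still held reads of the gene. Which part of the gene is deleted is not given in the sources used here. Some libraries stood apart before any subunit was considered. The 13 olfactory bulb markers in the table summed to between 196 and 1480 CPM in the unstressed WT libraries, against 43.2 to 214 in the stressed WT, 59.5 to 209 in the unstressed KO and 52.0 to 156 in the stressed KO libraries. The mean level of this list, centred over the 12 libraries, was 3.31, 3.44 and 0.50 on the log2 scale in unstressed WT libraries 1, 2 and 3. Meningeal and fibroblast markers followed the same libraries, with sums of 157 to 444 CPM in unstressed WT and at most 146 in any other library. Striatal markers summed to 938 CPM in stressed KO library 1 and to at most 319 in the other libraries. The excitatory cortical neuron markers, which define the sampled tissue, summed to 5339 to 8396 CPM and none of them was at 0. Unstressed KO library 2 had the highest level of cytosolic ribosomal protein genes, 0.51 above the mean of the 12 libraries on the log2 scale.

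Some promoters of the subunit genes hold short sequences that the naming rule did not use. Promoter windows of 300 bases ran from 250 before to 50 after the transcription start. They were matched by symbol or synonym in RefSeq (build GRCm38.p6) for 70 of the 85 genes, with 76 windows in all. A set of 3 short sequences, bound by factors known to regulate respiratory genes, was searched on both strands: the core of the NRF1 site (GCGCANGC, or GCNTGCGC on the other strand), an ETS core of the kind bound by GABPA (CCGGAAG, or CTTCCGG), and a YY1 core (AAGATGGC, or GCCATCTT). The NRF1 core was found in 32.9% of the subunit windows, against 9.95% of all 32851 windows and 13.2% of the 21263 windows of protein-coding genes. The ETS core was found in 21.1% of them, against 8.86% and 11.6%, and the YY1 core in 15.8%, against 2.75% and 3.05%. At least 1 of the 3 was found in 56.6% of the subunit windows and in 24.3% of the protein-coding windows. A match is a match of letters and was not tested for binding. The windows compared were not matched for base composition, and overlapping windows of a gene can count the same site again.

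One promoter from each complex is shown, each from a gene whose values are given below, because together they hold all 3 sequences in different combinations. Capitals mark the matches, and the palindromic GCGCATGCGC holds 2 overlapping NRF1 cores. The windows, on GRCm38, are chr4:40279372-40279671 on the minus strand for Ndufb6 (complex I, 1 ETS core), chr4:140961021-140961320 on the plus strand for Sdhb (complex II, 1 NRF1 and 1 ETS core), chr9:108936398-108936697 on the plus strand for Uqcrc1 (complex III, 3 NRF1 cores), chr5:115348909-115349208 on the minus strand for Cox6a1 (complex IV, 3 NRF1 cores and 1 ETS core) and chr5:145191492-145191791 on the minus strand for Atp5j2 (complex V, 1 NRF1 and 1 YY1 core).
Ndufb6: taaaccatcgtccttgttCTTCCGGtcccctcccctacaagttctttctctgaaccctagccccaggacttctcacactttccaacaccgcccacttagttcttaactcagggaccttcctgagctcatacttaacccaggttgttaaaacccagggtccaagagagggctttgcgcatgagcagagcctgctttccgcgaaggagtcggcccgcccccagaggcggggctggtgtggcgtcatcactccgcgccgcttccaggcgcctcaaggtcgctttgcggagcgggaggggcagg
Sdhb: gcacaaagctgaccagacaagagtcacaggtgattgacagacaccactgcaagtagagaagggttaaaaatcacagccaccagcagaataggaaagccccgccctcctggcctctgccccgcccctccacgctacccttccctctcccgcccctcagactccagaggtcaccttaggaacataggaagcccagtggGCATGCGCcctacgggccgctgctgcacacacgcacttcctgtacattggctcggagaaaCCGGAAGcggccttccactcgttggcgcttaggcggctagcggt
Uqcrc1: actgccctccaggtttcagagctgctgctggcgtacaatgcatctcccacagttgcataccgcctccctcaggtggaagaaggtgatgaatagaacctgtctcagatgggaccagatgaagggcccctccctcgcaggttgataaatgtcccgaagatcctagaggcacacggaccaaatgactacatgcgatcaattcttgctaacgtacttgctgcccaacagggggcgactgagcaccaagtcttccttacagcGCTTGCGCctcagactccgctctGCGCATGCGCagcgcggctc
Cox6a1: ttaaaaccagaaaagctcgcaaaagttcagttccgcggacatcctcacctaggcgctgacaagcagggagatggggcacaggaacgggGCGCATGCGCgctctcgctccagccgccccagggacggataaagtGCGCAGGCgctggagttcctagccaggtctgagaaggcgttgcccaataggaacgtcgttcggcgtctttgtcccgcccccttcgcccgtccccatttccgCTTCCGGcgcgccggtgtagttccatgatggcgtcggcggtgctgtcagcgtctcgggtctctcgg
Atp5j2: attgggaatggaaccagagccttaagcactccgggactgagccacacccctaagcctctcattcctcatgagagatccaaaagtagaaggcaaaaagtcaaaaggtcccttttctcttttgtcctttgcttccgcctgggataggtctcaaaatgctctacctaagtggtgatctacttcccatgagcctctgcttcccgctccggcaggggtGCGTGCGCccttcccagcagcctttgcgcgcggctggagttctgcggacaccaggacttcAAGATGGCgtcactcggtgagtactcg

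Genes with and without a match had close medians. In stress in WT the median log2 fold change was 0.31 over the 23 tested genes with an NRF1 core and 0.30 over the 44 with a window and no NRF1 core. In KO against WT without stress the medians were 0.38 and 0.34. These are descriptions, and the difference between the 2 sets was not tested.

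Levels differed widely between subunits. Divided by transcript length, Atp5b, the catalytic beta subunit of the ATP synthase, had the highest mean over the 12 libraries, 626 CPM per kilobase, with a range of 575 to 719. Cox4i1, the ubiquitous form of the largest nuclear-encoded complex IV subunit, followed at 612 (483 to 930), and the 2 ranges overlapped. Cox8a followed at 494 and Cox6b1 at 440.
Complex I subunits other than Ndufa4, Ndufa4l2 and Ndufs5 lay lower, from 183 CPM per kilobase for Ndufb9 down to 30.3 for Ndufs4. Ndufs4 is an accessory subunit in which mutations cause Leigh syndrome in people. Ndufab1, the mitochondrial acyl carrier protein, was at 34.6. Ndufa4, the subunit of cytochrome c oxidase, was at 375. Ndufs5, an accessory subunit that cells of every tissue need, was listed at 0 in 9 of the 12 libraries and at 0.728, 0.847 and 0.820 CPM in the other 3, so it is named here and given no fold change. Estimated counts of Cox7c carried decimals in all 12 libraries, which arise where reads are shared between similar sequences, and its values are uncertain.

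Where a subunit has tissue isoforms, the form typical of brain dominated in all 4 groups. Cox4i1 was at 612 CPM per kilobase and Cox4i2, the lung isoform that answers to oxygen, at 1.12. Cox6a1 was at 275 and the heart and muscle isoform Cox6a2 at 3.93. Cox6b1 was at 440 and Cox6b2, a testis isoform, at 1.3. Cox7a2 was at 150 and the muscle isoform Cox7a1 at 2.16. Ndufa4 was at 375 and Ndufa4l2, which hypoxia induces, at 2.01. The 3 genes Atp5g1, Atp5g2 and Atp5g3 encode the same mature c subunit of the ATP synthase with different import peptides, and their levels were closer, at 164, 185 and 259 CPM per kilobase.

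**Figure D1:**
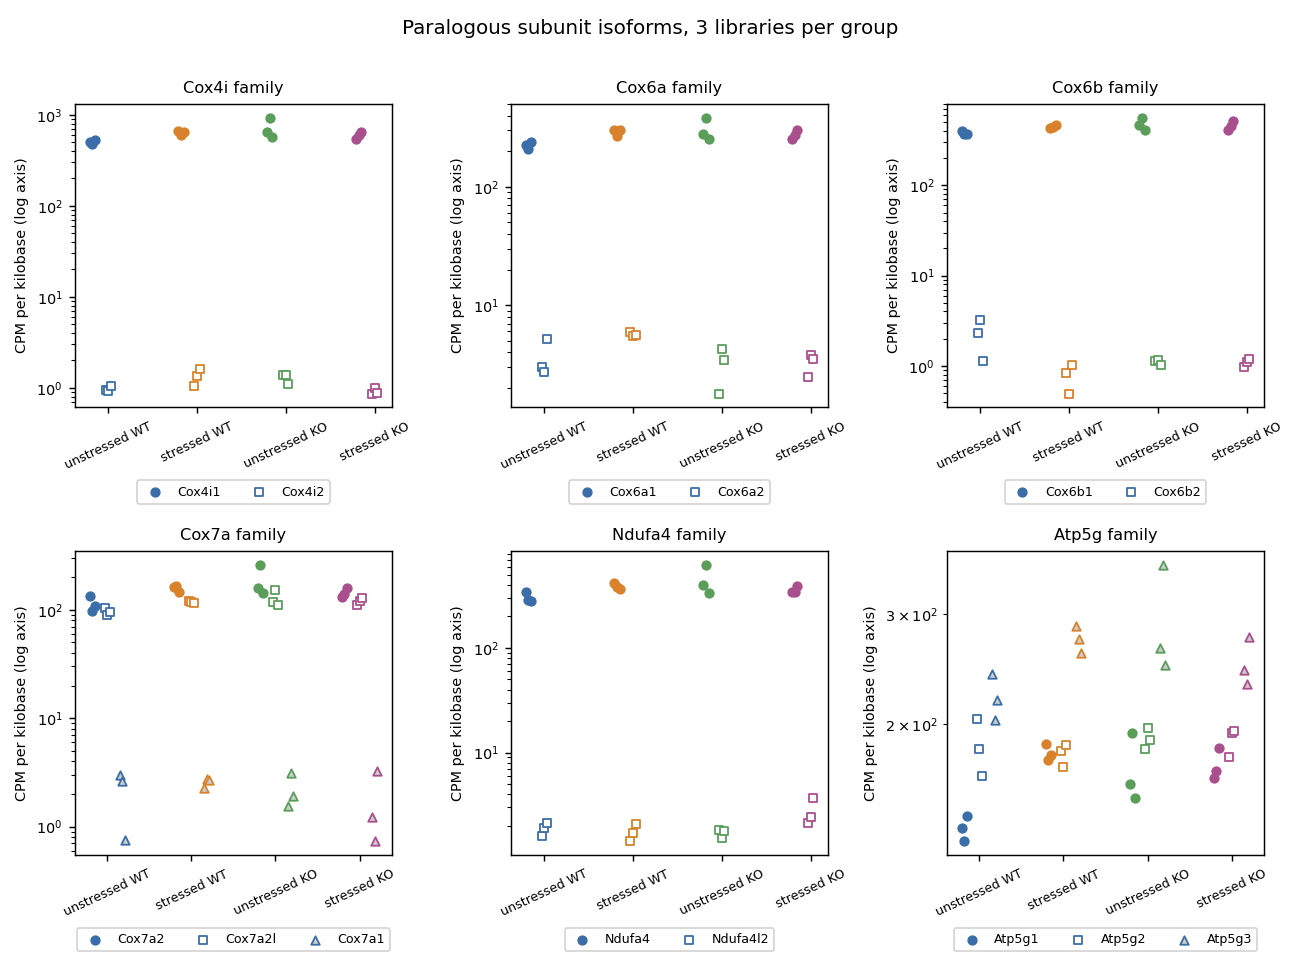
Levels of paralogous subunits in CPM per kilobase of transcript on a log axis, with 1 point per library and 3 libraries in each of the 4 groups; circles, squares and triangles are the genes named under each panel. In the Cox4i, Cox6a, Cox6b and Ndufa4 panels and for Cox7a1 the minor isoform lies below 6 CPM per kilobase in every library, while the 3 Atp5g genes lie close together.

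The subunits moved together across libraries, and unstressed WT libraries 2 and 3 were at the bottom. The mean level of the 82 tested genes, centred over the 12 libraries on the log2 scale, was -0.09, -0.27 and -0.27 in the unstressed WT libraries, 0.11, 0.11 and 0.04 in the stressed WT libraries, 0.04, 0.38 and -0.04 in the unstressed KO libraries, and -0.10, -0.01 and 0.11 in the stressed KO libraries. All 3 stressed WT libraries were above all 3 unstressed WT libraries, whereas the KO groups overlapped. For 27 of the 82 genes every unstressed WT library was below all 9 others, against 9.1% of all genes tested, and for none was every unstressed WT library above them. Those 27 were spread over the complexes, with 9 in complex I, 1 in complex II, 5 in complex III, 6 in complex IV and 6 in complex V. Of 81 tested genes, leaving out Ndufs5, unstressed WT library 2 held the lowest value for 43 and unstressed WT library 3 for 25, against 12.5% and 7.83% of all genes tested. Unstressed WT library 1 held the lowest value for 3. Unstressed KO library 2 held the highest value for 62 of the 81, against 13.7% of all genes.

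**Figure D2:**
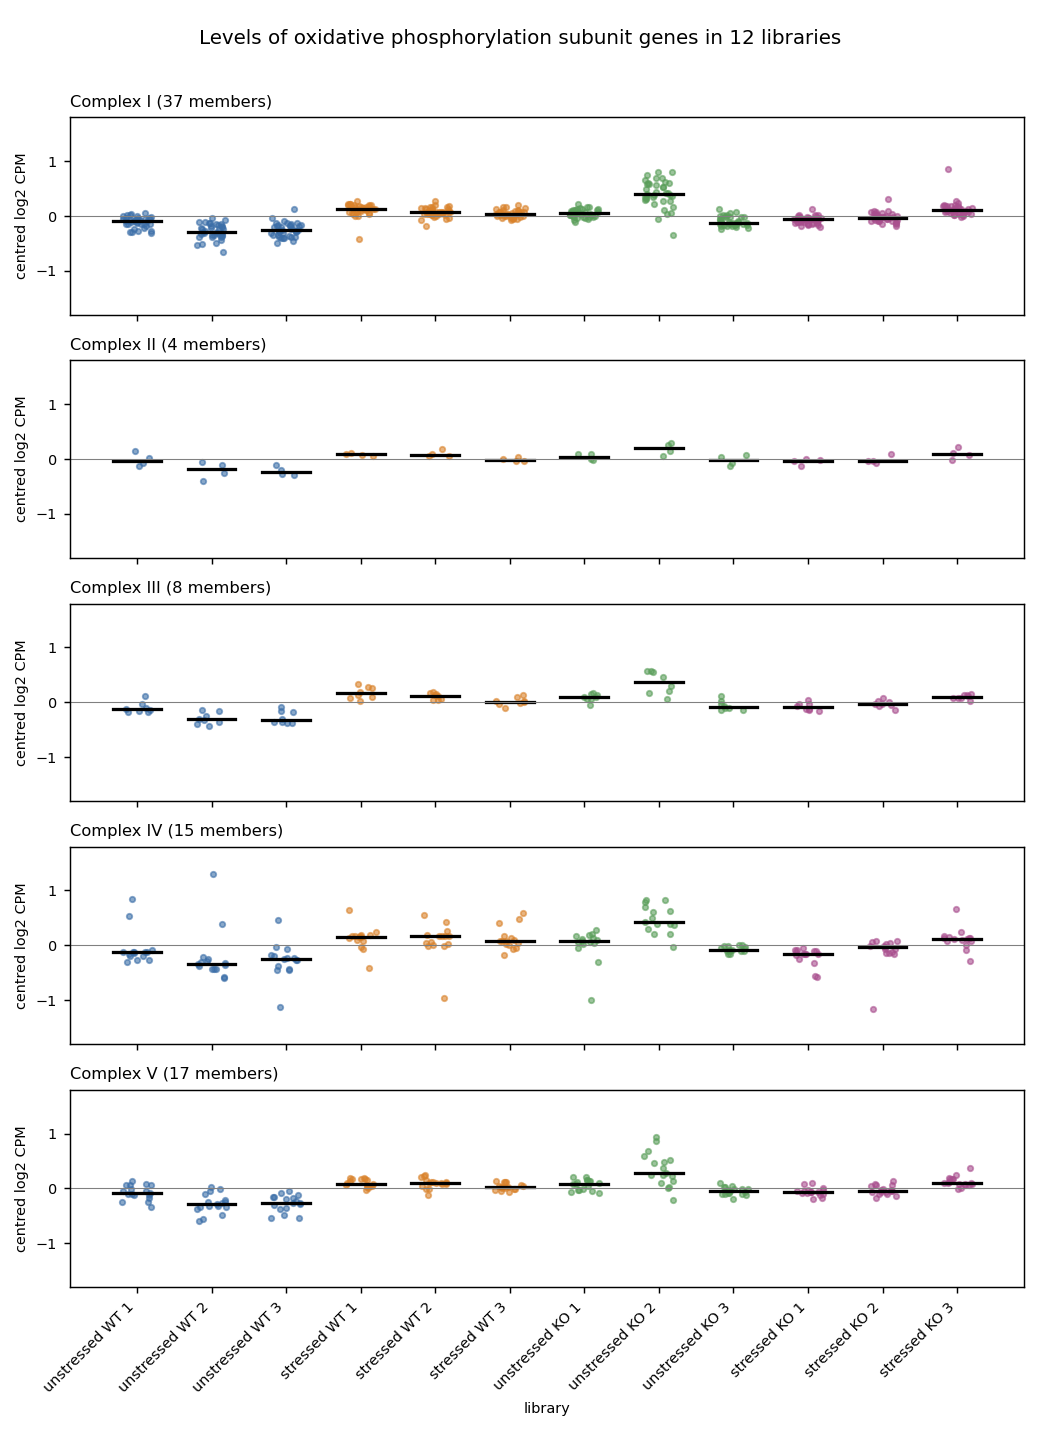
Levels of the tested subunits of complexes I to V (Ndufs5 left out) in each of the 12 libraries as log2 CPM centred on each gene's mean; each point is 1 gene, the black bar is the median and colours mark the 4 groups. The unstressed WT medians lie below 0 in every complex, unstressed KO library 2 lies highest, and the genes far from their complex's median are mostly minor complex IV isoforms.

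Olfactory bulb markers and subunits ranked the 3 unstressed WT libraries differently. Library 3, with the lowest olfactory score of the 3 at 0.50, had a subunit mean of -0.27, equal to that of library 2 with an olfactory score of 3.44. Library 1, with an olfactory score of 3.31, had the subunit mean nearest to the other groups, -0.09. A relation between olfactory score and subunit mean was not tested on these 3 libraries. In bulk tissue, fewer cells rich in mitochondria and less of these RNAs in each cell cannot be told apart.

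Between unstressed and stressed WT libraries there was an upward shift across all 5 complexes that was small for each gene. Whether it came from stress or from a trait of the unstressed WT libraries was not tested. Of the 82 genes, 17 rose and 1 fell at an adjusted p under 0.05 (edgeR's quasi-likelihood test, Benjamini-Hochberg over 15199 genes), where 9.71% of all genes tested rose and 12.1% fell. In either direction 22.0% of the subunits and 21.9% of all genes passed, so the share that passed was that of all genes and the directions differed. Leaving out Ndufs5, 78 of 81 log2 fold changes were above 0 and the median was 0.30, against 50.3% above 0 and a median of 0.00 over all genes tested. The 3 stressed libraries were above the 3 unstressed libraries without overlap for 64 of the 82 genes and below them for 1, against 19.4% and 17.2% of all genes. The genes that rose were 7 of 38 in complex I, 1 of 4 in complex II, 4 of 8 in complex III, 1 of 15 in complex IV and 4 of 17 in complex V.

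In complex III, which had the largest share of genes that rose, Uqcrc1 and Uqcrc2 encode the core proteins on the matrix side and Uqcrfs1 the Rieske iron-sulfur protein that hands electrons to cytochrome c1. Uqcrc1 (chr9:108936633-108949623) was at 211, 208 and 219 CPM in WT mice without stress. It was at 266, 254 and 256 CPM in WT mice with stress, and the 2 KO groups held 223, 242 and 228 CPM before and 227, 227 and 237 CPM after stress. The stressed WT libraries were the 3 highest of the 12, and Uqcrc1 had the smallest p of the subunits in this comparison, 0.28 ± 0.06 (SE) on the log2 scale with an adjusted p of 0.0152. Uqcrc2 went from 201, 184 and 202 CPM to 232, 260.1 and 227 CPM with stress in WT and was at 238, 256 and 246 and 234, 229 and 239 in the KO groups. Its unstressed WT libraries did not overlap with the stressed ones, 0.29 ± 0.07 (SE) on the log2 scale with an adjusted p of 0.02. Uqcr10, a small accessory subunit, had the largest change in the complex, 0.49 ± 0.14 (SE) on the log2 scale with an adjusted p of 0.0312, from 57.9, 48.8 and 51.1 CPM to 78.6, 72.8 and 70.1 CPM. Uqcrfs1 rose by 0.23 ± 0.07 (SE) on the log2 scale, and Uqcrb had the smallest change, 0.16 ± 0.12, with overlapping groups.

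In complex I the 7 core subunits that carry the flavin and iron-sulfur centres had log2 fold changes between 0.21 and 0.28, of which 2 passed, Ndufs3 and Ndufv1. The 28 accessory subunits, not counting Ndufa4, Ndufa4l2 and Ndufs5, ranged from 0.12 to 0.55 with a median of 0.32, and 5 passed. Among these was Ndufa9 (chr6:126821721-126849136), which lies at the joint of the membrane and peripheral arms. Its values were 95.5, 88.3 and 98.8 CPM before and 122, 123 and 113 CPM after stress in WT mice, 0.34 ± 0.08 (SE) on the log2 scale with an adjusted p of 0.0162. The KO libraries, at 106, 126 and 108 CPM before stress and 107, 108 and 108 CPM after it, lay mostly between them. Ndufb9 went from 105, 86.9 and 94.8 CPM to 139, 132 and 130.3 CPM, a difference of 0.49 ± 0.15 on the log2 scale. Ndufa10 had one of the smallest changes that passed, 0.22 ± 0.07, from 96.4, 97.7 and 104 CPM to 109, 119 and 119 CPM. In all 3 cases the stressed libraries lay above the unstressed ones. Ndufb2, an accessory subunit of the membrane arm, had the largest log2 fold change in the complex, 0.55 ± 0.19, which did not pass (adjusted p = 0.0571).

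Of the 4 subunits of complex II, Sdha carries the flavin, Sdhb the iron-sulfur clusters, and Sdhc and Sdhd anchor them in the membrane. Sdhb was at 113, 94.1 and 101 CPM before and 129.6, 132 and 122 CPM after stress in WT, and at 132, 148 and 127 CPM before and 125, 132 and 145 CPM after it in KO. It was the one subunit of complex II past the threshold, 0.31 ± 0.09 (SE) on the log2 scale with an adjusted p of 0.0299. Sdha was at 438, 429 and 424 CPM and 483, 519 and 459 CPM without overlap, a log2 fold change of 0.18 ± 0.07 with an adjusted p of 0.0723. Sdhc, at 0.08 ± 0.10, had overlapping groups.

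In complex IV the ubiquitous subunits had log2 fold changes from 0.23 for Cox6b1 to 0.53 for Cox6c, but Cox5a, on the matrix side of the enzyme, was the one that rose, 0.35 ± 0.09 (SE) on the log2 scale with an adjusted p of 0.0236, from 124, 106 and 108 CPM to 148, 147 and 134 CPM. Cox6c was at 135, 104 and 114 CPM and 183, 176 and 150.5 CPM, without overlap but missed the threshold (adjusted p = 0.0594). The only subunit that fell was Cox6b2, at 0.998, 1.41 and 0.497 CPM before and 0.362, 0.214 and 0.444 CPM after stress, -1.48 ± 0.39 (SE) on the log2 scale with an adjusted p of 0.0239. These are low levels, where 3 reads correspond to 0.092 to 0.192 CPM, and the 2 highest Cox6b2 values were those of unstressed WT libraries 1 and 2, the libraries with the high olfactory bulb markers. The part of those markers in the change was not tested. Its ubiquitous partner Cox6b1 was at 141, 129.8 and 132 CPM and 152, 155 and 164 CPM.

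In complex V the genes that rose were Atp5d of the central stalk, Atp5f1 of the peripheral stalk, Atp5g1 of the c ring and Atp5s. Atp5g1 was at 94.3, 89.8 and 98.6 CPM before and 129, 121 and 123 CPM after stress in WT, 0.40 ± 0.09 (SE) on the log2 scale with an adjusted p of 0.016. In KO its values were 111, 134 and 105 CPM before and 113, 116 and 127 CPM after stress. The other c ring genes differed: Atp5g3 had a log2 fold change of 0.31 ± 0.13 that did not pass, and Atp5g2 had -0.04 ± 0.08, with 90.0, 80.4 and 72.9 CPM and 79.8, 75.3 and 81.7 CPM in overlapping groups. Atp5b, the most abundant subunit, was at 1255, 1107 and 1101 CPM and 1319, 1377 and 1215 CPM, also with overlap.
Atp5d changed by 0.30 ± 0.08, with 135, 128 and 136 CPM before and 175, 152 and 165 CPM after stress in WT. The 5 subunits of the F1 part, which makes the ATP, ranged from 0.09 to 0.46 on the log2 scale and the 7 of the peripheral stalk and membrane part from 0.25 to 0.49.

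**Figure D3:**
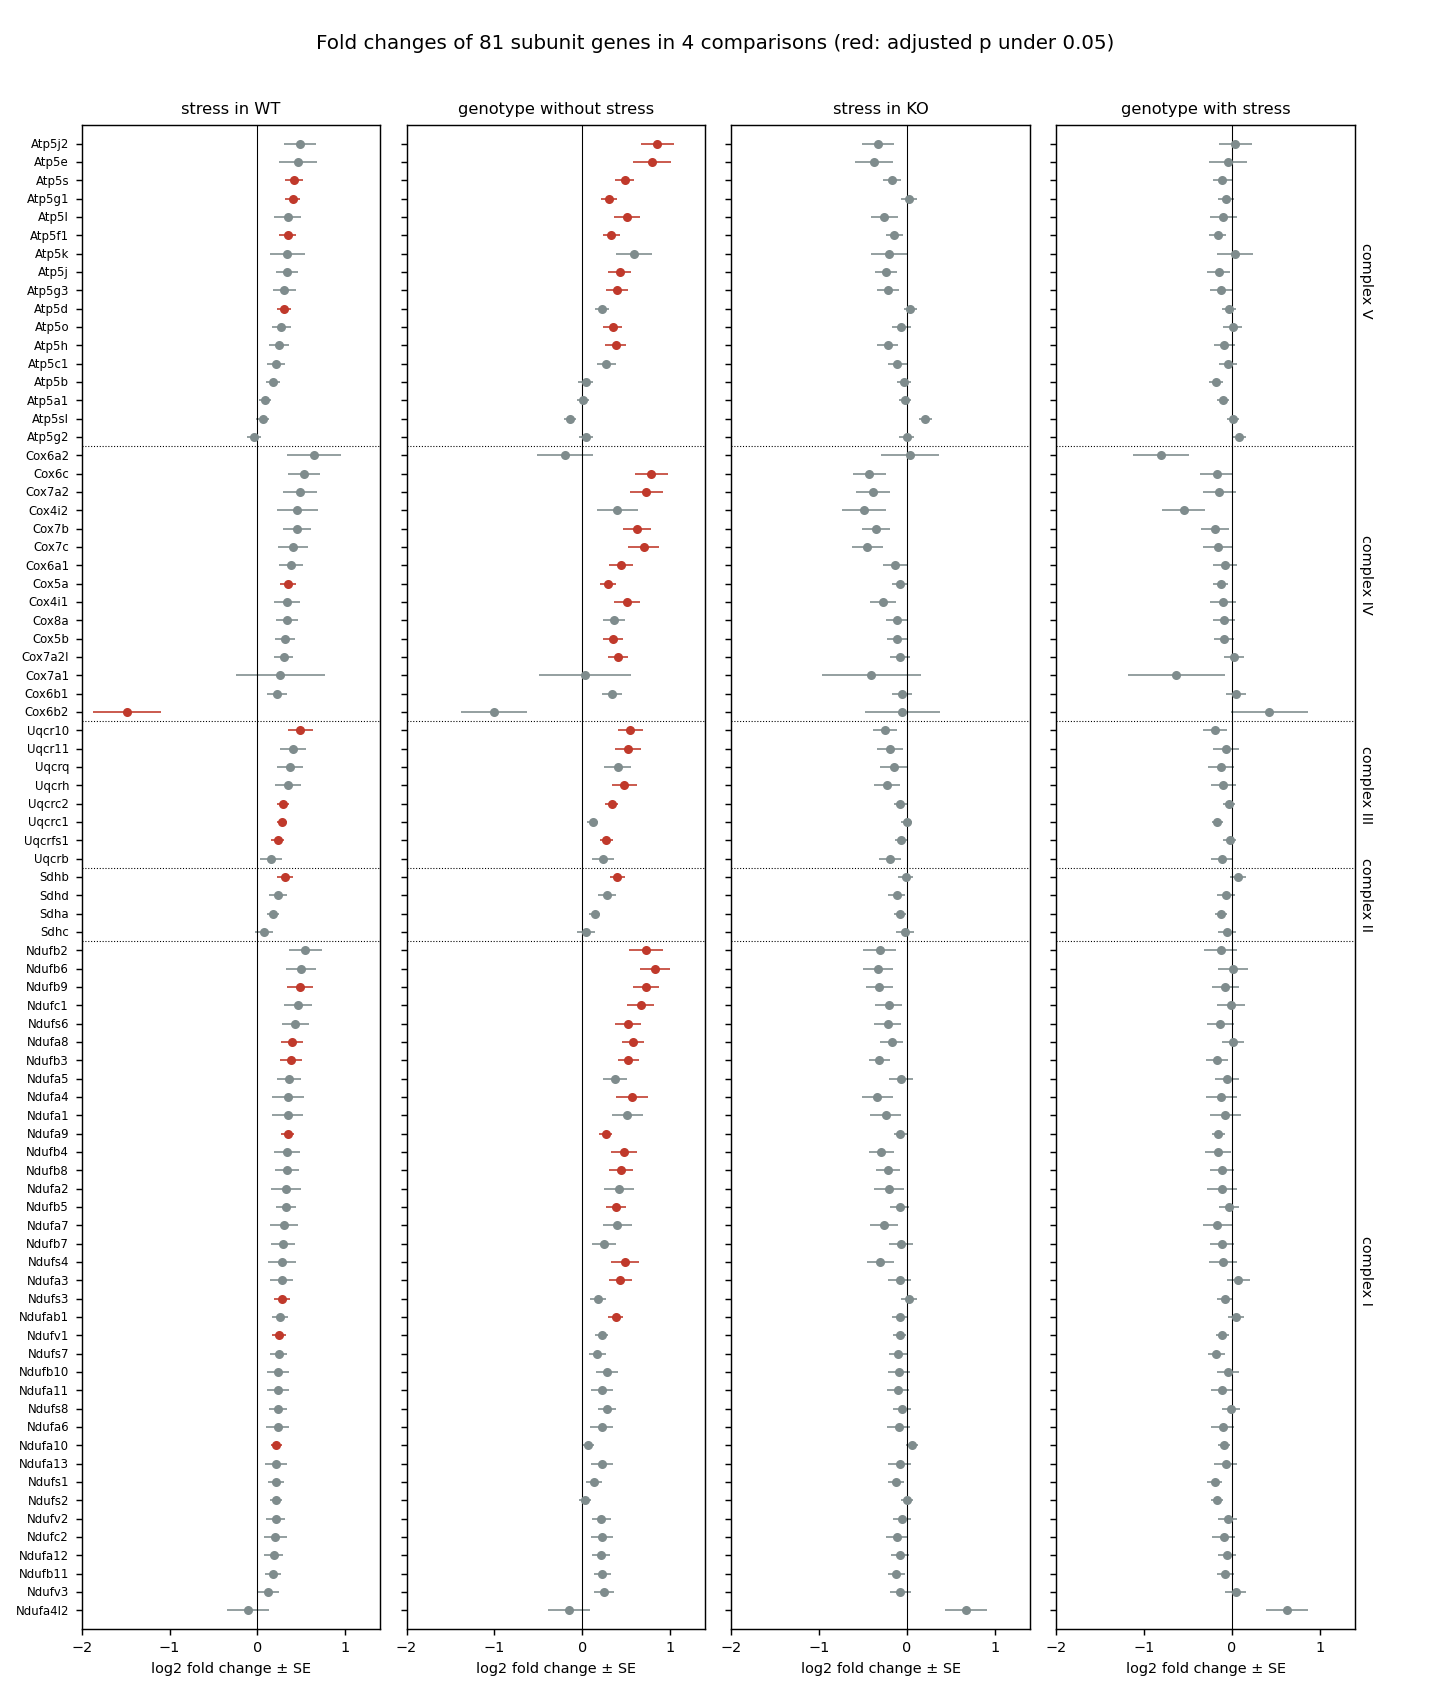
Log2 fold changes with their standard errors for 81 tested subunits (Ndufs5 left out), ordered within complexes by the change with stress in WT; the 4 panels are stress in WT, KO against WT without stress, stress in KO and KO against WT with stress, and red marks an adjusted p under 0.05. In the first 2 panels, which share the unstressed WT libraries, 18 and 40 genes are red and nearly all points lie right of 0; in the last 2 none is red and most lie left of 0.

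Without stress, KO libraries had higher levels of these genes than WT libraries in all 5 complexes. Of the 82 genes, 40 were higher and 0 lower at an adjusted p under 0.05, against 11.2% and 12.1% of all genes tested. At an unadjusted p under 0.05, 1 was lower, against 19.8% of all genes, and DESeq2 called 49 in either direction, or 59.8%, against 27.5% of all genes. Leaving out Ndufs5, 77 of 81 were above 0 with a median log2 difference of 0.35. Groups did not overlap for 39 genes with KO higher and for 1 with KO lower, against 18.5% and 18% of all genes. This comparison and that of stress in WT share the unstressed WT libraries, so their values are given side by side. The genes past the threshold were 15 of 38 in complex I, 1 of 4 in complex II, 5 of 8 in complex III, 9 of 15 in complex IV and 10 of 17 in complex V.

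In complex I 14 of the 28 accessory subunits passed, and the 28 ranged from 0.07 to 0.83 on the log2 scale. None of the 7 core subunits passed, though all 7 were above 0, at 0.03 to 0.28. The difference between the core and accessory genes was not tested. Ndufb6 (chr4:40270591-40279421), an accessory subunit of the membrane arm, had the smallest p, 0.83 ± 0.17 (SE) on the log2 scale with an adjusted p of 0.0116. It was at 41.3, 32.1 and 38.4 CPM in WT mice and 56.9, 88.2 and 53.5 CPM in KO mice without stress, against 55.6, 53.0 and 48.6 and 49.6, 48.9 and 59.8 CPM in the stressed WT and KO groups. Its 3 unstressed WT values were the lowest of the 12, and unstressed KO library 2 was the highest. Ndufa8 was at 62.9, 56.6 and 62.8 CPM in WT and 83.4, 113 and 75.5 in KO, a difference of 0.58 ± 0.13. Ndufab1 was at 45.3, 38.5 and 40.6 CPM in WT and 54.5, 59.1 and 48.4 in KO, a difference of 0.38 ± 0.09, and here too the 2 groups did not overlap. The remaining gene past the threshold was Ndufa4, which belongs with complex IV, at 0.56 ± 0.18 with overlapping groups.

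Sdhb was again the one complex II subunit past the threshold, 0.40 ± 0.09 (SE) on the log2 scale with an adjusted p of 0.0138. In complex III Uqcrc2 was higher in KO by 0.34 ± 0.07 (adjusted p = 0.0128) and Uqcr10 by 0.55 ± 0.14, whereas Uqcrc1, first in the stress comparison, differed by 0.12 ± 0.06 and did not pass (adjusted p = 0.169). In complex IV the largest difference was that of Cox6c, 0.79 ± 0.19 (SE) on the log2 scale with an adjusted p of 0.0167, with 178, 276 and 153 CPM in KO. Cox7a2 and Cox7b differed by 0.73 ± 0.19 and 0.62 ± 0.16, and Cox4i1, at 487, 693 and 422 CPM in KO against 371, 359.5 and 394 in WT, by 0.51 ± 0.15. The minor isoforms Cox6a2 and Cox6b2 had differences of -0.20 ± 0.32 and -1.0 ± 0.38 that did not pass.

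In complex V the 7 peripheral stalk and membrane genes included 6 that passed, with a range of 0.33 to 0.86, and the 5 F1 genes included 1, Atp5e. Atp5j2 (chr5:145183698-145192062), a small membrane subunit, was at 76.5, 60.3 and 62.4 CPM in WT mice and 101, 166 and 93.7 CPM in KO mice, 0.86 ± 0.18 (SE) on the log2 scale with an adjusted p of 0.0132. Its values were 94.8, 98.0 and 86.6 and 88.9, 90.2 and 108 CPM in the stressed groups, all above the unstressed WT libraries. The catalytic subunits Atp5a1 and Atp5b showed differences of 0.01 ± 0.07 and 0.04 ± 0.08. Atp5sl was the one gene with all KO libraries below WT, at 30.5, 27.9 and 30.1 CPM against 34.1, 32.8 and 30.5, and did not pass (-0.14 ± 0.07, adjusted p = 0.154).

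Stress changed no subunit past the threshold in KO mice. In this comparison 0 of 82 genes rose or fell, and of all genes tested 0.00658% rose and 0.0132% fell, with DESeq2 also calling 0 of the 82 and 0.303% of all genes. At an unadjusted p under 0.05, 2 were higher and 4 lower, against 4.23% and 4.97% of all genes. The median log2 fold change was -0.12 and 8 of 81 genes, leaving out Ndufs5, were above 0, but this rested on unstressed KO library 2: without it the median was 0.00 and 42 of 82 genes were above 0. Without unstressed KO library 3 the median was -0.21. Groups did not overlap for 2 genes with stressed libraries higher and for 4 with them lower, against 8.45% and 8.45% of all genes. The 2 higher ones were Atp5sl, from 30.5, 27.9 and 30.1 CPM to 34.0, 34.3 and 33.9 CPM (0.21 ± 0.07, adjusted p = 0.470), and Ndufa4l2, at 1.68, 1.42 and 1.64 and 1.99, 2.27 and 3.39 CPM (0.67 ± 0.24, adjusted p = 0.471). The lowest were Cox4i2, at -0.49 ± 0.25, and Cox7c, at -0.45 ± 0.17.

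Among stressed mice the genotypes did not differ past the threshold for any subunit. Here 0 of 82 genes were called, where 0.0855% of all genes were higher and 0.164% lower in KO, and DESeq2 also called 0 of the 82, with 1.97% of all genes. At an unadjusted p under 0.05, 1 was higher and 6 lower, against 6.55% and 6.43% of all genes. The median was -0.09, with -0.04 without stressed KO library 1 and -0.15 without stressed KO library 3, and groups did not overlap for 1 gene with KO higher, Ndufa4l2, and 12 with KO lower, against 10.8% and 11.3% of all genes. The smallest p was that of Uqcrc1, whose stressed KO libraries were all below its stressed WT libraries, -0.17 ± 0.06 (adjusted p = 0.274). Cox6a2, the heart and muscle isoform, had the largest difference with KO lower, at 1.67, 2.60 and 2.37 CPM against 4.02, 3.73 and 3.82 in stressed WT, -0.81 ± 0.32 (adjusted p = 0.308). Its gene overlaps Itgad on the opposite strand, and how strand was used in counting is not known here.

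The difference between the stress effects of the genotypes was tested as an interaction, the effect in KO minus that in WT. No subunit passed, and 0% of all genes tested were higher and 0% lower at an adjusted p under 0.05. At an unadjusted p under 0.05, 54 of the 82 were lower and 2 higher, against 14% and 14.5% of all genes, and DESeq2 called 27 of the 82 and 12.4% of all genes. The median was -0.42. The smallest adjusted p-values were those of Ndufb3, -0.70 ± 0.17, and Atp5s, -0.59 ± 0.15, both 0.0577. Ndufb3 went from 57.0, 48.4 and 50.3 CPM to 70.2, 70.7 and 61.8 CPM with stress in WT, and from 68.1, 90.5 and 65.5 CPM to 54.9, 59.6 and 65.7 CPM in KO. Its unstressed WT libraries were low, its unstressed KO library 2 was high, and the other 2 unstressed KO libraries lay within the range of the stressed KO libraries or slightly above it. Without unstressed WT library 3 the count past the threshold was 17, or 20.7% of the subunits against 25.0% of all genes.

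Most subunit transcripts are short, and short transcripts as a class followed the same libraries. Of the 81 with a length (median over coding transcripts of GENCODE M21), 32 were under 600 bases, 27 from there to 1000, 18 from there to 2000 and 4 from there to 4000. For stress in WT the subunits under 600 bases had a median log2 fold change of 0.35 and the 429 other genes of that length 0.15. From 600 up to 1000 bases the medians were 0.33 and 0.13, and from 1000 up to 2000 bases 0.28 and 0.07. In KO against WT without stress the subunit medians were 0.44, 0.35 and 0.28 in these 3 classes and those of other genes 0.24, 0.17 and 0.05. In unstressed KO library 2 the subunits under 600 bases were 0.56 above their mean and the other genes of that length 0.26. The mean level of the 1668 other genes under 1000 bases was added to the fit as a covariate, an alternative chosen after seeing the data. With it the median in stress in WT was 0.23 with 45 of 82 subunits called, 54.9% against 31.8% of all genes. For KO against WT without stress it was 0.20 with 24 of 82 called, 29.3% against 29.9% of all genes, so there the share called was that of all genes.

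**Figure D4:**
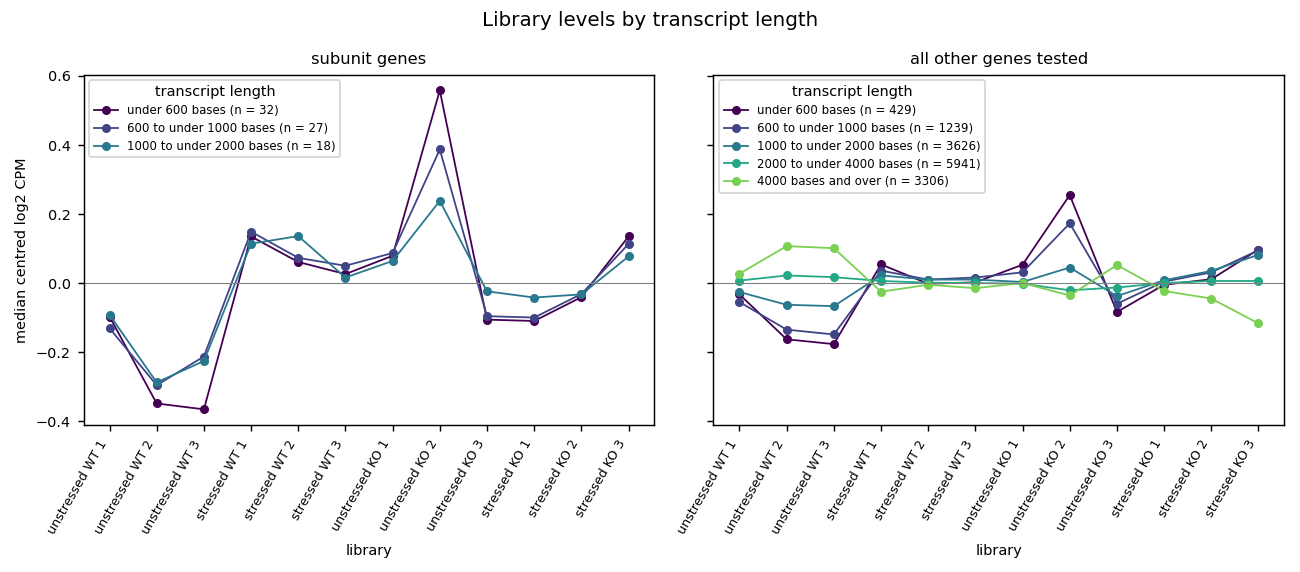
Median centred log2 CPM of subunit genes (left) and of all other genes tested (right) in each library, with 1 line per class of transcript length. In both panels the shortest class is lowest in unstressed WT libraries 2 and 3 and highest in unstressed KO library 2, and the spread is wider for the subunits.

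The direction of the shift did not hang on one library, while the number of genes past the threshold did. In stress in WT the median lay between 0.26 and 0.37 whichever of the 6 libraries was left out, but the count of 18 varied. It was 9 without unstressed WT library 1, 0 without unstressed WT library 2 and 18 without unstressed WT library 3, in fits that called 6.33%, 0% and 36.6% of all genes. It was 6, 0 and 11 without stressed WT libraries 1, 2 and 3, where 13%, 0% and 10.8% of all genes were called. Where no subunit was called, no other gene was called either. Without unstressed WT libraries 1 and 2, which held the olfactory bulb markers, the median was 0.34 and 81 of 83 genes tested were above 0, with 0 called on 1 remaining control library. In KO against WT without stress the median lay between 0.22, without unstressed KO library 2, and 0.45. The count of 40 fell to 0 without unstressed WT library 2, where 1.53% of all genes were called, and to 7 without unstressed KO library 2, or 8.54% of the subunits against 6.40% of all genes. Without unstressed WT libraries 1 and 2 the median was 0.39 with 0 called, and without unstressed KO library 2 as well it was 0.27 with 0 called. With 1 unstressed WT library the test assumes that it varies like the libraries of the other groups.

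**Figure D5:**
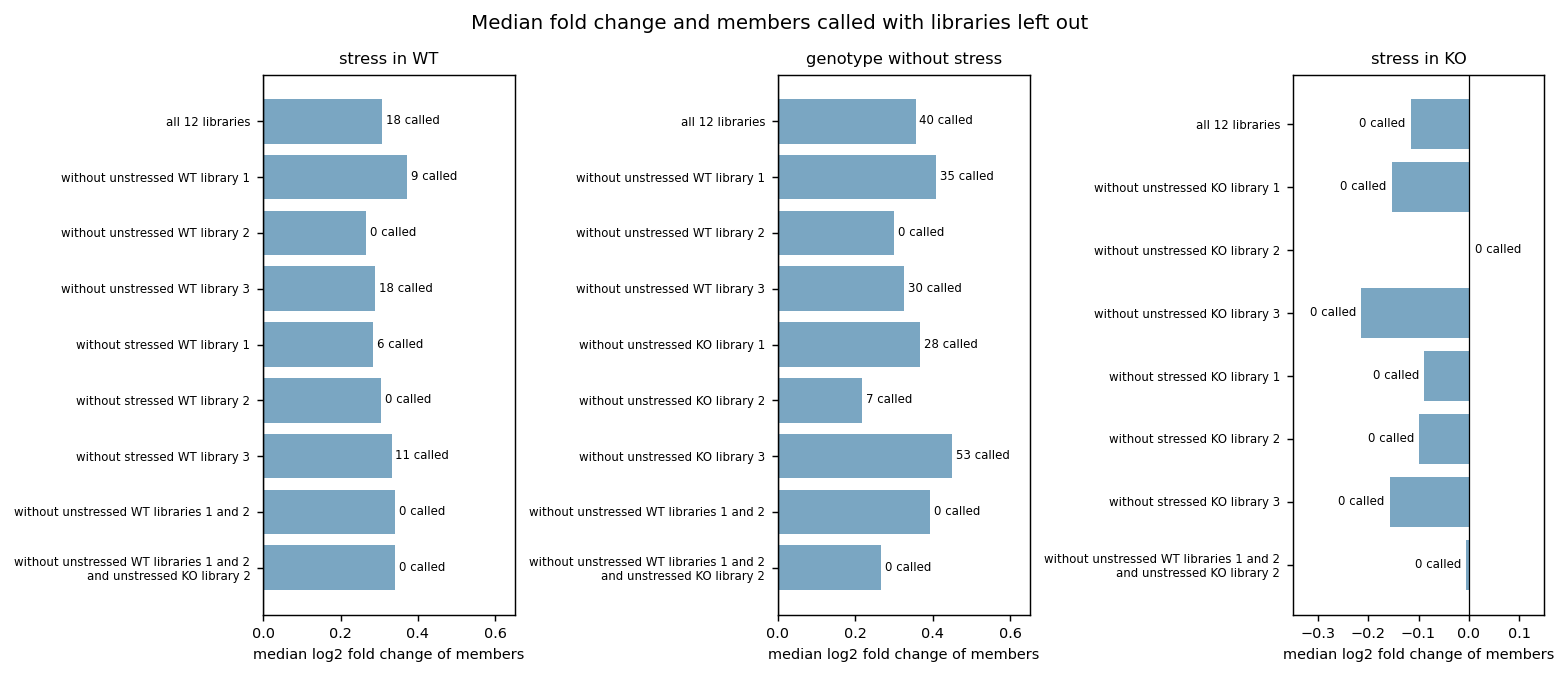
Median log2 fold change of the tested subunits (bars) in stress in WT, KO against WT without stress and stress in KO with all 12 libraries and with libraries left out; the number beside each bar is how many subunits passed an adjusted p of 0.05. The bars stay above 0 in the first 2 panels while the counts range from 0 to 18 and from 0 to 53, and the third comes to 0.00 without unstressed KO library 2.

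Other genes of the pathway were taken from lists of known function. Of all genes tested, 9.71% rose and 12.1% fell in stress in WT, and 11.2% were higher and 12.1% lower in KO without stress. With stress in WT mice, 13 of 48 assembly factors rose and 0 fell, with a median log2 fold change of 0.25. They included Ndufaf3, which acts on complex I (0.37 ± 0.08), Sdhaf3 for complex II (0.60 ± 0.13) and Tmem70 for complex V (0.43 ± 0.10). Without stress, 21 of the 48 were higher in KO and 0 lower. Of 15 genes of electron transfer, cytochrome c and ubiquinone synthesis, 3 rose with stress in WT, the ubiquinone synthesis genes Coq4, Coq2 and Coq3, with a median of 0.16 over the list, and cytochrome c itself, Cycs, missed the threshold at 0.35 ± 0.12 (adjusted p = 0.0503). Of 24 genes for import into mitochondria and for carriers, 9 rose and 0 fell, led by Timm17a of the inner membrane translocase (0.42 ± 0.08). In 77 mitochondrial ribosomal protein genes 23 rose and 0 fell, with a median of 0.24. These lists, like the subunits, had 0 genes called in stress in KO and in KO against WT with stress.

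Enzymes that feed the chain were taken from 2 further lists, to be read beside the 9.71% of all genes that rose in stress in WT. With stress in WT mice, 5 of 18 genes of the citric acid cycle rose and 0 fell with a median of 0.16, among them Sucla2 (0.34 ± 0.08) and Idh3b (0.28 ± 0.07). In glycolysis 5 of 16 rose and 0 fell with a median of 0.21, led by Tpi1 (0.51 ± 0.09) and Ldha (0.65 ± 0.12). The regulators of mitochondrial genes went both ways, with 2 of 19 higher and 3 lower, against 9.71% and 12.1% of all genes. The transcription factor of mitochondrial DNA, Tfam, rose by 0.24 ± 0.07 and the deacetylase Sirt3 by 0.39 ± 0.11, while the coactivator Ppargc1a changed by -0.35 ± 0.09 and the GABP subunit Gabpb2 by -0.87 ± 0.20. Of the 101 tested genes whose symbol starts like a cytosolic ribosomal protein, 1 was higher and 1 lower in stress in WT, and both, Rps6kl1 and Rps6kb2, are named for S6 kinases. The median of that list was 0.14. In KO against WT without stress 26 of the 101 were higher and 1 lower, against 11.2% and 12.1% of all genes. The list's median there was 0.34, close to the 0.36 of the subunits.

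Markers of some cell types moved in the same comparisons. Their counts stand beside 9.71% of all genes that rose and 12.1% that fell in stress in WT. In stress in WT, 12 of 12 tested olfactory bulb markers and 11 of 12 meningeal and fibroblast markers fell, 9 of 12 oligodendrocyte and myelin markers rose, and of 12 excitatory cortical neuron markers 2 rose and 1 fell. These neuron markers had 11 of 12 log2 fold changes above 0 and a median of 0.45, larger than that of the subunits. Among the unstressed WT libraries, numbers 1 and 2 held their lowest centred mean levels, -0.71 and -0.39, while number 3 was at 0.14 and the 9 libraries of the other groups lay between -0.11 and 0.18. Oligodendrocyte markers summed to 1347 to 1604 CPM in unstressed WT and 1976 to 3427 in stressed WT libraries. Of 12 parvalbumin interneuron markers, a cell type rich in mitochondria, 4 rose and 4 fell, and Pvalb itself rose by 1.34 ± 0.22. The same list held Gad1, which fell by 1.21 on the log2 scale. Of the astrocyte markers 3 of 10 fell and of the pericyte and mural markers 2 of 10, and of the microglia markers 0 of 10 passed. In KO against WT without stress, 12 of 12 olfactory bulb and 9 of 12 meningeal markers were lower, and 0 of 12 oligodendrocyte markers passed. There 11.2% of all genes were higher and 12.1% lower. The part of these cell types in the subunit values was not tested beyond the fits without the 2 WT libraries and with the olfactory score as a covariate. That score was 3.31, 3.44 and 0.50 in the unstressed WT libraries and at most 0.41 in any other library. The covariate thus overlaps with the groups compared, and the fit cannot separate olfactory tissue from group. With the covariate the subunit medians were 0.41 in stress in WT and 0.48 in KO against WT without stress. That fit called 0 of 82 subunits in each comparison, against 0% and 0.0921% of all genes.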

How the data were processed

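A directional kit was used on total RNA, per the labels' protocols. The deposited table holds raw estimated counts for 12 libraries by gene symbol. The submitters' processing notes name the build mm10 and the tools RSEM 1.3.1, STAR 2.7.9a, DESeq2 1.36.0 and Trim Galore 0.6.6. They name no annotation and no strand setting.

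Estimated counts were rounded and tested with edgeR 4.0.16 (R 4.3.3): filterByExpr with a minimum count of 10 and total of 15, TMM scaling, 4 group means with 8 residual degrees of freedom, quasi-likelihood tests of 5 contrasts and Benjamini-Hochberg adjustment over 15199 genes. Standard errors were derived from the log2 fold change and its F statistic. CPM use TMM-scaled library sizes. DESeq2 1.42.0 was an alternative. The fits were tested on simulated data. Totals of 15469590 to 31082240 put 3 counts at 0.092 to 0.192 CPM, which covers counting error only. Libraries of a group differed by 4.90 to 71.1 chi-square units per degree of freedom, so none was taken for a copy of another.

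Positions and lengths are from GENCODE M21 (GRCm38). 96.2% of tested symbols had one. Named genes were the subunits past the threshold with the smallest p (up to 12 per comparison, otherwise 4), the extremes of each complex (Ndufs5 left out), the isoform families and subunits that moved against the majority without overlap. Other genes are the first 3 by p of a list, or markers. Ndufs3, Ndufv1, Ndufs4, Atp5a1, Cycs, Tfam and Gad1, among others, were named after their values were seen. The members and lists were chosen with earlier results of these data known.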

Additional observations from a re-analysis of the deposited data

Results flagged for a closer look

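In 3 subunit genes every stressed WT library was above every unstressed WT library while every stressed KO library was below every unstressed KO library. Of all genes tested, 19.4% were higher without overlap in stress in WT and 8.45% lower in stress in KO. The share of all genes with both was not counted. For Cox4i2 the WT groups were barely apart, at 0.762 CPM for the highest unstressed and 0.764 CPM for the lowest stressed library. For Atp5s the stress effect in KO minus that in WT was -0.59 on the log2 scale (edgeR interaction, adjusted p = 0.0577). For Cox4i2, at 0.627 to 1.16 CPM, it was -0.95 (adjusted p = 0.103). For Sdha it was -0.26 (adjusted p = 0.106). None passed the threshold.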

How the results depend on the processing

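With edgeR's quasi-likelihood test, members called in stress in WT numbered 18 of 82 and in KO against WT without stress 40 of 82. DESeq2 called 33 in stress in WT and 27 in the interaction, where edgeR called 0, with 26.5% and 12.4% of all genes called. Fits of only the groups compared called 0 members in either of the first 2 comparisons, on fewer libraries, where 0.00667% and 0.12% of all genes were called. Leaving out 1 library gave 0 to 18 in stress in WT, 0 to 53 in KO against WT without stress and 0 to 17 in the interaction. The fits with these highest counts called 36.6%, 12.4% and 25% of all genes, against 22%, 64.6% and 20.7% of members. The alternatives that follow were added after seeing the data. Without unstressed WT libraries 1 and 2, also without unstressed KO library 2, and with the olfactory bulb score as covariate, each of the first 2 comparisons called 0. With the short transcript score as covariate stress in WT called 45, KO against WT without stress 24 and the interaction 32, or 54.9%, 29.3% and 39.0% of members against 31.8%, 29.9% and 15.1% of all genes, and the median in KO against WT with stress was -0.17. The cause was not tested. Stress in KO and KO against WT with stress called 0 under every alternative run. DESeq2 size factors, no filter and leaving out Cox7c kept the other counts within 1.5 times.

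Some named members with values near 0 changed sign. Leaving out 1 library gave these ranges of log2 fold change. In stress in WT, Atp5g2 ranged from -0.115 to 0.0435, Sdhc from -0.0081 to 0.173, Cox7a1 from -0.14 to 0.57 and Ndufa4l2 from -0.26 to 0.02. In stress in KO, Cox6a2 ranged from -0.26 to 0.32, Sdhb from -0.0795 to 0.0454 and Uqcrc1 from -0.0316 to 0.0292. In KO against WT without stress, Sdhc ranged from -0.0515 to 0.130, Cox6a2 from -0.48 to 0.13, Atp5g2 from -0.0399 to 0.119 and Cox7a1 from -0.38 to 0.34, and in KO against WT with stress Uqcrfs1 from -0.085 to 0.0033. Atp5g2 in stress in WT was 0.11 without unstressed WT libraries 1 and 2 (0.11 also without unstressed KO library 2) and 0.0934 with the olfactory score. In stress in KO, without those 3 libraries, Sdhb was 0.0392 and Uqcrc1 0.0231, and Uqcrc1 was 0.0008 with no filter. With the short transcript score, in KO against WT without stress, Sdhc was -0.093, Atp5g2 -0.0242 and Cox7a1 -0.49.

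Same-numbered libraries of different groups had correlations of deviations from -0.25 to 0.36 over 18 pairs, 4 of them over 0.1. These correlations cannot decide whether the numbers mark pairs, and the main fits did not pair libraries by number. With the replicate block, 12 members were called in stress in WT, or 14.6% against 19.8% of all genes. In KO against WT without stress 29 were called, or 35.4% against 20.8% of all genes, with 0 in the other 3 comparisons.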
